A study of Mus musculus with 21 samples.

Results

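Of the genes in left ventricular RNA of mice fed empagliflozin, 8 were chosen by their small p-values of the EMPA diet against the control diet in one or both genotypes: Btnl9, Ttc7, Man1c1, Tent5c, 4933431K23Rik, Tmem64, Tmem47 and Acsl3. The counts table held 55450 genes, of which 17309 had enough counts to be tested, and all 8 were among these. Because the diet contrasts chose the genes, their diet values are given as a description. The comparisons of genotypes did not enter the choice, but they use the same mice as the diet contrasts and are therefore not independent of it.

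Empagliflozin inhibits the sodium-glucose cotransporter SGLT2 of the kidney, so that glucose is lost in urine and the body shifts towards fatty acids and ketones as fuels. The 8 genes belong to no single pathway. Btnl9 encodes a butyrophilin-like membrane protein of the immunoglobulin superfamily that is known from capillary endothelial cells, and Tmem47 a claudin-like protein of cell junctions. Acsl3 links long-chain fatty acids to coenzyme A on the endoplasmic reticulum and on lipid droplets. Man1c1 is a Golgi mannosidase that trims N-linked glycans, and Ttc7 is a subunit of the complex that holds the phosphatidylinositol 4-kinase PI4KA at the plasma membrane. Tmem64 is a membrane protein described as a regulator of the calcium pump SERCA2 and of β-catenin signalling. Tent5c is a poly(A) polymerase that lengthens the tails of messenger RNAs, and 4933431K23Rik is a locus annotated as a processed transcript without a coding sequence.

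The hearts came from 21 male mice of strain 129S6/SvEv at 12 weeks of age, which either carried the R403Q mutation of cardiac myosin heavy chain (Myh6), a mouse model of hypertrophic cardiomyopathy, or were wild-type littermates. They were fed a control diet or the same diet with 0.15 mg of empagliflozin per g, about 15 mg per kg of body weight: WT-CD (n = 5), WT-EMPA (n = 5), R403Q-CD (n = 7) and R403Q-EMPA (n = 4). The diets began when the mice were 9 to 10 weeks old and lasted 2 weeks for these hearts; the labels give 16 weeks, which the age does not allow. CD mice had been housed in 4 cages and EMPA mice in 3 others, so that cage and diet cannot be told apart.

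Each mouse gave between 23491535 and 43539684 counts, for which 3 counts, taken as the floor, correspond to 0.0621 to 0.127 CPM (counts scaled by TMM to a common library total, the usual normalized read count); the floor covers counting error only. The 8 genes had between 101 and 3760 counts in each heart. The 10 cardiomyocyte markers, which define the tissue, summed to 69592 to 119614 CPM. The lowest of these sums and the highest Nppa level among R403Q-CD mice (10996 CPM, against 883 to 3826 CPM in the other 6) both belonged to R403Q-CD replicate 2. Without this mouse the diet log2 fold changes in R403Q hearts were 0.44 for Btnl9, 0.15 for Ttc7, 0.40 for Man1c1, 0.50 for Tent5c, 0.52 for 4933431K23Rik, 0.33 for Tmem64, 0.43 for Tmem47 and 0.49 for Acsl3. In bulk tissue, fewer cells of a type and less RNA per cell cannot be told apart.

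Promoter windows, from 250 bases before to 50 bases after the start of transcription, were taken from RefSeq (GRCm38.p6) and matched 7 of the 8 genes by symbol. Windows are shown for Btnl9, which had the largest wild-type diet value among the genes called, for Tmem47 and 4933431K23Rik, which held an E-box, the motif bound by clock proteins, and for Man1c1, which held the most matches. Each is written 5′ to 3′ on the strand of the gene, with motif matches in capitals: the E-box (CACGTG), the CCAAT box (the letters of its name) and the nuclear receptor half-site (AGGTCA), each on either strand.
Btnl9, chr11:49187040-49187339, minus strand: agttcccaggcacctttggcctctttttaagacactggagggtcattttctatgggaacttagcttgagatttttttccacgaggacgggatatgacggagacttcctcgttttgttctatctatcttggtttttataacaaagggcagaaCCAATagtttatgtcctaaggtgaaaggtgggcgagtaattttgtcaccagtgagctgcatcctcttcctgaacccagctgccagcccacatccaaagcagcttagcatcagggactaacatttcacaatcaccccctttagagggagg
Tmem47, chrX:81070394-81070693, plus strand: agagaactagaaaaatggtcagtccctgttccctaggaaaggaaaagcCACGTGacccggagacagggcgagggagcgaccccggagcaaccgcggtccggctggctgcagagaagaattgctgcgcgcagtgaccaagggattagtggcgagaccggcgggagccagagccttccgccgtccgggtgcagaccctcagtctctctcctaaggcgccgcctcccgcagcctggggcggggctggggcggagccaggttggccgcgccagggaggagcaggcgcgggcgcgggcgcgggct
4933431K23Rik, chr8:77658908-77659207, plus strand: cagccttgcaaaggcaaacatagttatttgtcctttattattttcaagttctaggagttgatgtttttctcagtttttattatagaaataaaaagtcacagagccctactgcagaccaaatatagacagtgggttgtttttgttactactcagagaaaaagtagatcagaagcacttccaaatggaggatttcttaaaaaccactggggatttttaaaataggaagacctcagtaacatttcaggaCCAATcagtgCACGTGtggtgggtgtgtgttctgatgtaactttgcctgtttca
Man1c1, chr4:134704241-134704540, minus strand: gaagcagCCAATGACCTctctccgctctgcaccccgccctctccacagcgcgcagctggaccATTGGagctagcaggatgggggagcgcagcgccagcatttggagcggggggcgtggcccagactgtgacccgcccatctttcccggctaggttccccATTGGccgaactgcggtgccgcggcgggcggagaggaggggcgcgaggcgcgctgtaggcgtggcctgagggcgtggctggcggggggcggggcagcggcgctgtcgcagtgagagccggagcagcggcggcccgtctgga

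In the window of Man1c1 the first CCAAT box and the half-site overlap by a base. Counted from the RefSeq start of each window, the E-box began at position -202 in Tmem47 and at position 7 in 4933431K23Rik, whose RefSeq start lies inside the annotated locus and not at the start of the counted gene. Of 32851 mouse promoter windows of the same length, searched on both strands, 7.15% held an E-box, 37.4% a CCAAT box and 16.3% the half-site. Among the 7 genes with a window, 2 held an E-box, 1 held the half-site, and Btnl9, Man1c1, Tent5c, 4933431K23Rik and Acsl3 held a CCAAT box. A D-box (TTATGTAA, in 0.938% of windows) or a cAMP response element (TGACGTCA, in 1.79%) was found in 0 of the 7. The windows of 5 genes were rich in G and C, from 68.7% in Tmem47 to 78.0% in Tent5c, whereas those of Btnl9 (46.0%) and 4933431K23Rik (37.0%) lay below the median of 52.7% over all windows. The matches describe letters in these windows and were not tested as binding sites.

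The choice rested on the smaller of both diet p-values of each gene. By this value the 8 genes ranked 2, 4, 5, 7, 8, 10, 18 and 22 among 17309, and 14 genes at or above rank 22 were not members. The last member, 4933431K23Rik, had a smaller p of 6.95e-05, and the gene just after it had 7.4e-05. In edgeR's quasi-likelihood test with Benjamini-Hochberg adjustment over all genes, 0.0116% of genes passed an adjusted p of 0.05 for R403Q-EMPA against R403Q-CD and 0.0289% for WT-EMPA against WT-CD. Among the members, Tmem64 passed in R403Q hearts and Btnl9, Ttc7 and Man1c1 passed in wild-type hearts; this restates the choice. In DESeq2, which called 1.05% of genes tested in R403Q and 0.752% in wild-type hearts, 5 members passed in R403Q hearts (Man1c1, 4933431K23Rik, Tmem64, Tmem47 and Acsl3) and 6 in wild-type hearts (Btnl9, Ttc7, Man1c1, Tent5c, 4933431K23Rik and Acsl3). With 1 mouse left out at a time, Tmem64 was called in 6 of 11 edgeR refits, and Btnl9 in 4, Ttc7 in 1 and Man1c1 in 0 of 10 refits. The number of all genes called ran from 0 to 12 in R403Q and from 0 to 7 in wild-type hearts, in place of 2 and 5. At an unadjusted p under 0.05 there were 2322 genes in the former contrast and 1907 in the latter.

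**Figure D1:**
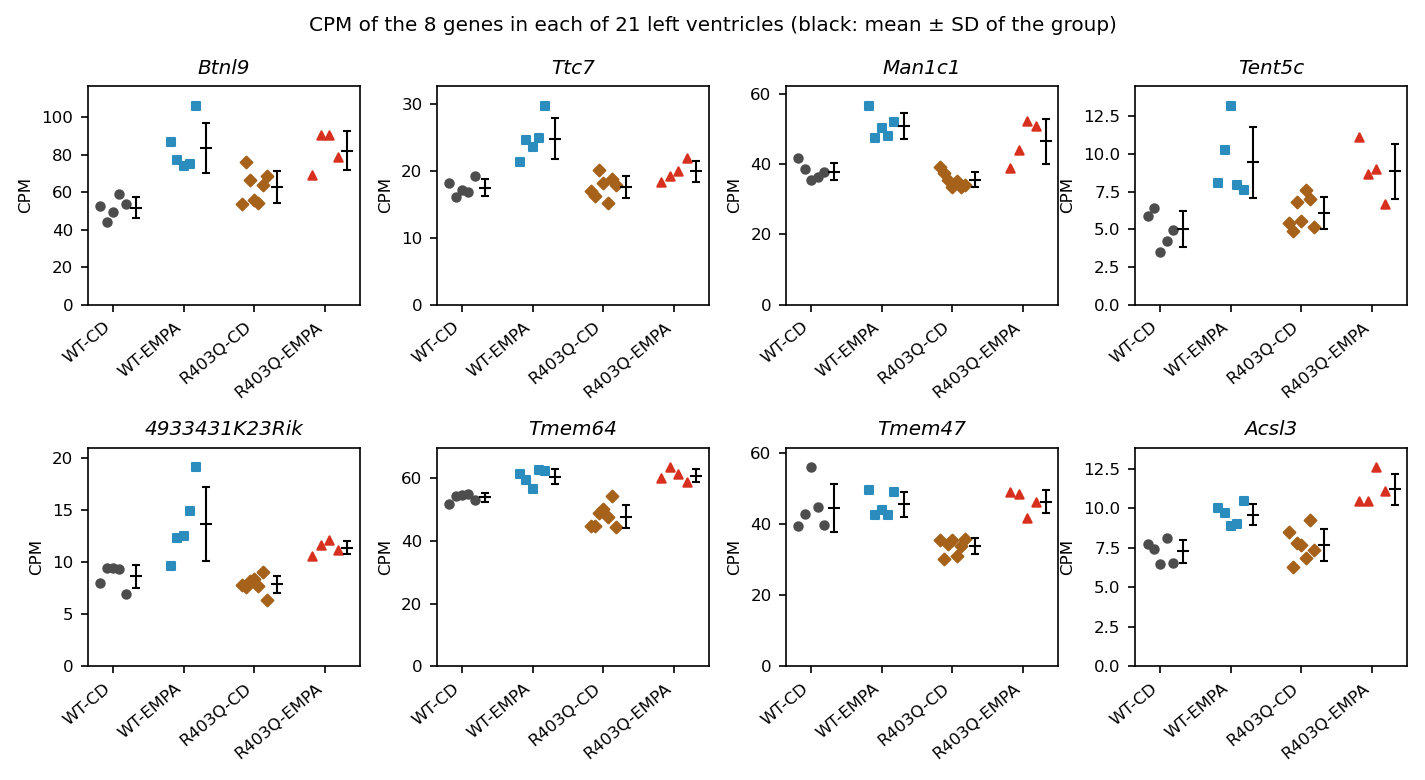
CPM (y axis, starting at 0) of the 8 genes in every heart, by group on the x axis; symbols are single mice and the black bars to their right are the mean ± SD of the group. All WT-EMPA hearts lie above all WT-CD hearts for 7 genes, Tmem47 being the exception, and all R403Q-EMPA hearts lie above all R403Q-CD hearts for 4 genes.

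Btnl9 (ENSMUSG00000040283) lies on the minus strand of chromosome 11, from 49165585 to 49187159 of GRCm38, with 12 merged exons. It was measured at 52.5, 44.0, 49.2, 59.0 and 53.5 CPM in the 5 WT-CD hearts and at 87.0, 77.2, 73.7, 74.9 and 106.0 CPM in the 5 WT-EMPA hearts, without overlap. The R403Q-CD hearts ranged from 53.9 to 76.0 CPM with a median of 63.9, and the R403Q-EMPA hearts had 69.2, 90.3, 90.6 and 78.6 CPM. Of these 4, the first lay within the range of R403Q-CD. The ratio of the group means was 1.62 in wild-type hearts (log2 fold change 0.70, SE 0.114) and 1.31 in R403Q hearts (0.39, SE 0.111).

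Endothelial markers were set beside Btnl9. Of 14 general endothelial genes, 0 passed the adjusted threshold of edgeR in either diet contrast (4 in R403Q and 3 in wild-type hearts had an unadjusted p under 0.05, and DESeq2 called Cldn5 in R403Q hearts), and their median log2 fold changes were 0.06 in R403Q and 0.02 in wild-type hearts. The 7 capillary markers summed to 3775 to 4172 CPM in WT-CD, 4024 to 4871 in WT-EMPA, 3229 to 4706 in R403Q-CD and 4173 to 5095 in R403Q-EMPA hearts. The largest part was Cd36, which is also on the fasting and PPARα list below. It averaged 2215, 2725, 2155 and 2512 CPM in the same order. The 7 markers had median log2 fold changes of 0.12 in R403Q hearts (6 fitted higher, 1 lower) and 0.05 in wild-type hearts (4 higher, 3 lower). Their members with the smallest diet p-values were Kdr, a receptor for vascular endothelial growth factor, with log2 fold changes of 0.40 in R403Q and 0.30 in wild-type hearts, and Rgcc, at -0.64 and -0.35. Adjusted p-values (edgeR) were 0.155 and 0.318 for Kdr and 0.162 and 0.474 for Rgcc. Whether the endothelial share of the tissue has a part in the Btnl9 values was not tested. Of 9 other butyrophilin-family genes in the table, 0 had enough counts to be tested.

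Tmem47 (ENSMUSG00000025666), on the plus strand of chromosome X from 81070698 to 81097872, gave a different pattern. Its level was 39.5, 42.8, 55.9, 44.8 and 39.8 CPM in WT-CD hearts and 49.6, 42.6, 43.9, 42.4 and 49.1 CPM in WT-EMPA hearts. The wild-type groups overlapped throughout. In R403Q-CD hearts it ranged from 30.1 to 35.8 CPM (median 34.4), below every other heart in the study, and in R403Q-EMPA hearts it was 49.0, 48.4, 41.8 and 46.1 CPM. The ratio of means was 1.37 in R403Q (log2 fold change 0.46, SE 0.0828) and 1.02 in wild-type hearts (0.03, SE 0.0841). Thus the higher level with EMPA was seen in R403Q hearts, which reached the wild-type range. The antisense lincRNA Gm26775 shares 463 exon bases with Tmem47 in the annotation. Among 19 other claudin-like and tight junction genes, 0 passed in either diet contrast in edgeR (7 in R403Q and 2 in wild-type hearts at an unadjusted p under 0.05), whereas DESeq2 called Cldn5 and Perp in R403Q hearts. The smallest p-values were those of Cldn5, the claudin of endothelial junctions (0.61 in R403Q, adjusted p = 0.103 by edgeR, and 0.48 in wild-type hearts, adjusted p = 0.264), and Perp (-0.27 and -0.17).

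Acsl3 (ENSMUSG00000032883) lies on the plus strand of chromosome 1, from 78657825 to 78707743. WT-CD hearts had 7.74, 7.45, 6.50, 8.12 and 6.53 CPM and WT-EMPA hearts 10.0, 9.73, 8.86, 8.98 and 10.5 CPM. R403Q-CD hearts ranged from 6.27 to 9.24 CPM (median 7.71), and R403Q-EMPA hearts had 10.5, 10.5, 12.6 and 11.1 CPM. EMPA and CD hearts did not overlap in either genotype, with mean levels of 7.27 and 9.61 CPM in wild-type hearts (log2 fold change 0.40, SE 0.0997) and a ratio of means of 1.46 in R403Q hearts (0.54, SE 0.0971). Utp14b, a gene on the same strand, shares 244 exon bases with Acsl3 and had 740 counts over all 21 mice.

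Other acyl-CoA synthetases were fitted in both directions. Of 14 tested, 8 were fitted higher and 6 lower with EMPA in R403Q hearts, 7 and 7 in wild-type hearts, and 0 passed the adjusted threshold in either by edgeR or DESeq2, with 5 and 2 at an unadjusted p under 0.05. The smallest p-values were those of the fatty acid transport proteins Slc27a1 (0.40 in R403Q and 0.45 in wild-type hearts) and Slc27a6 (-1.54 and -1.16). Among 21 lipid droplet genes 0 passed in edgeR, 6 in R403Q and 7 in wild-type hearts having an unadjusted p under 0.05; DESeq2 called Lipe in R403Q and Plin2 in wild-type hearts. Plin2, which coats lipid droplets, had log2 fold changes of 0.34 and 0.54 (adjusted p = 0.244 and 0.126, edgeR), and Lipe, the hormone-sensitive lipase, 0.52 and 0.48 (adjusted p = 0.125 and 0.205).

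Genes of fasting, ketone metabolism and PPARα signalling formed a list of 21, all tested. In R403Q hearts 21 and in wild-type hearts 20 of them were fitted higher with EMPA, with medians of 0.29 and 0.30 beside medians of 0 over all genes tested. At an unadjusted p under 0.05, 14 and 12 were higher and 0 lower, but 0 passed the adjusted threshold of edgeR in either genotype. DESeq2 called 3 in R403Q and 6 in wild-type hearts, all higher, with Acot1 and Acot2 among them in both. Acot1, a cytosolic thioesterase that releases fatty acids from coenzyme A, had log2 fold changes of 1.51 in R403Q and 1.45 in wild-type hearts (adjusted p = 0.103 and 0.126, edgeR).

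Man1c1 (ENSMUSG00000037306) lies on the minus strand of chromosome 4, from 134561690 to 134704290. It was measured at 41.7, 38.5, 35.4, 36.4 and 37.7 CPM in WT-CD and at 56.6, 47.5, 50.3, 47.9 and 51.9 CPM in WT-EMPA hearts. R403Q-CD hearts spanned 33.6 to 39.2 CPM with a median of 35.3, and R403Q-EMPA hearts had 38.8, 43.9, 52.4 and 50.9 CPM. Only the first of these fell within the R403Q-CD range, and the wild-type groups did not overlap. The ratios of means were near each other, 1.34 in wild-type (log2 fold change 0.42, SE 0.0755) and 1.31 in R403Q hearts (0.39, SE 0.0741). Of 20 other genes of N-glycan processing 0 passed in edgeR or DESeq2 (at an unadjusted p under 0.05, 2 were higher in wild-type and 2 lower in R403Q hearts), with medians of 0.08 in wild-type and 0.02 in R403Q hearts. The mannosidase Man1a had log2 fold changes of 0.28 in wild-type and 0.07 in R403Q hearts, and Uggt1, the folding sensor of the endoplasmic reticulum, 0.28 and 0.17 (adjusted p from 0.229 to 0.720, edgeR). The 2 lower in R403Q hearts, named after their values were seen, were the N-acetylglucosaminyltransferases Mgat3, with -0.57 in R403Q and 0.09 in wild-type hearts, and Mgat4a, with -0.34 and -0.08 (adjusted p from 0.232 to 0.895, edgeR).

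Ttc7 (ENSMUSG00000036918) lies on the plus strand of chromosome 17, from 87282886 to 87381769. In WT-CD hearts its level was 18.2, 16.1, 17.2, 16.9 and 19.2 CPM, and in WT-EMPA hearts 21.3, 24.6, 23.6, 24.9 and 29.7 CPM, all above the former. R403Q-CD hearts ranged from 15.2 to 20.1 CPM (median 17.9). The R403Q-EMPA hearts, at 18.4, 19.2, 19.9 and 21.9 CPM, overlapped them except for the last. The ratio of means was 1.42 in wild-type (log2 fold change 0.50, SE 0.0859) and 1.13 in R403Q hearts (0.17, SE 0.0851). Of 14 genes of the PI4KA complex and of phosphoinositide kinases 0 passed in edgeR or DESeq2, and 1 in R403Q and 0 in wild-type hearts had an unadjusted p under 0.05. Pi4ka, the kinase itself, had log2 fold changes of 0.17 in wild-type and 0.13 in R403Q hearts, and the phosphatase Sacm1l -0.06 and -0.11.

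Tmem64 (ENSMUSG00000043252) lies on the plus strand of chromosome 4, from 15265831 to 15286753. WT-CD hearts had 51.9, 54.5, 54.8, 55.1 and 53.1 CPM, WT-EMPA hearts 61.5, 59.6, 56.6, 62.6 and 62.2 CPM, and R403Q-EMPA hearts 60.2, 63.5, 61.3 and 58.7 CPM. R403Q-CD hearts ranged from 44.5 to 54.2 CPM (median 47.5). Neither genotype showed overlap of the diets. The ratio of means was 1.27 in R403Q (log2 fold change 0.35, SE 0.0533) and 1.12 in wild-type hearts (0.17, SE 0.0542). The other SERCA genes and regulators, 10 tested, gave 0 calls in edgeR or DESeq2 (3 in R403Q and 2 in wild-type hearts at an unadjusted p under 0.05, all lower), 7 being fitted lower with EMPA in R403Q and 5 in wild-type hearts. Hax1, which binds phospholamban, had log2 fold changes of -0.22 and -0.20 (adjusted p = 0.238 and 0.325, edgeR), and the calcium-dependent kinase Camk2d -0.15 and -0.03. Of 25 Wnt and β-catenin genes 0 passed in edgeR or DESeq2, with 4 in R403Q and 6 in wild-type hearts at an unadjusted p under 0.05. Gsk3b, which marks β-catenin for degradation, had 0.13 in R403Q and 0.20 in wild-type hearts, and the receptor Fzd4 -0.26 and -0.10.

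Tent5c (ENSMUSG00000044468) lies on the minus strand of chromosome 3, from 100451628 to 100489324, and had the lowest level per length of the 8 genes. WT-CD hearts had 5.87, 6.44, 3.48, 4.23 and 4.99 CPM and WT-EMPA hearts 8.08, 10.3, 13.2, 7.94 and 7.64 CPM, without overlap. In R403Q-CD hearts the lowest value was 4.86, the median 5.58 and the highest 7.64 CPM, while R403Q-EMPA hearts had 11.1, 8.67, 9.02 and 6.66 CPM, of which the last lay within that range. The ratio of means, 1.89 in wild-type (log2 fold change 0.91, SE 0.184) and 1.46 in R403Q hearts (0.55, SE 0.178), was the largest of the 8 genes in wild-type hearts. Among 24 other genes of poly(A) tail synthesis and removal 0 passed in edgeR (7 in R403Q and 4 in wild-type hearts at an unadjusted p under 0.05), whereas DESeq2 called Btg1 and Tent5b in R403Q and Parn in wild-type hearts. Btg1, which recruits deadenylases, had a log2 fold change of 0.40 in R403Q hearts (adjusted p = 0.0599, edgeR) and 0.08 in wild-type hearts, and the deadenylase Parn -0.16 and -0.25.

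4933431K23Rik (ENSMUSG00000086451) lies on the plus strand of chromosome 8, from 77610860 to 77769682. Its values were 7.97, 9.45, 9.40, 9.35 and 6.93 CPM in WT-CD hearts and 9.63, 12.3, 12.5, 14.9 and 19.1 CPM in WT-EMPA hearts. R403Q-CD hearts ranged from 6.38 to 9.04 CPM (median 7.75), and R403Q-EMPA hearts had 10.6, 11.6, 12.1 and 11.2 CPM. The diets did not overlap in either genotype, with ratios of means of 1.59 in wild-type (log2 fold change 0.67, SE 0.136) and 1.45 in R403Q hearts (0.53, SE 0.134). On the opposite strand lies Ednra, the endothelin receptor gene, with 77937 counts over all mice and 91 exon bases in common with 4933431K23Rik. How far reads of Ednra entered the counts was not tested.

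Per kilobase of exon, so that genes can be compared, the mean level in WT-CD hearts fell in the order Tmem64 (11.5 ± 0.288 CPM per kb, SD, n = 5), Tmem47 (11.1 ± 1.66), Btnl9 (8.53 ± 0.915), Man1c1 (6.63 ± 0.421), Ttc7 (2.61 ± 0.181), Acsl3 (1.67 ± 0.166), 4933431K23Rik (1.62 ± 0.211) and Tent5c (0.82 ± 0.196). Acsl3 and 4933431K23Rik lay within each other's SD, and the mean of Tmem64 lay within the SD of Tmem47.

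**Figure D2:**
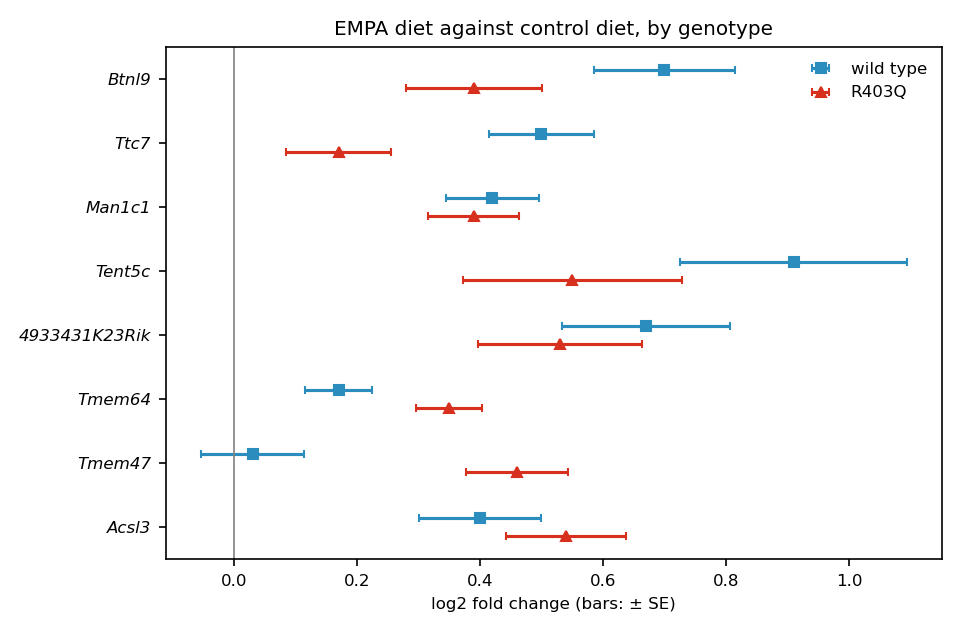
Log2 fold change (x axis, log2 scale) of EMPA against CD for the 8 genes (y axis) in wild-type hearts (squares) and R403Q hearts (triangles), with bars for ± SE of the edgeR fit. All 16 values are above 0, from 0.03 for Tmem47 to 0.91 for Tent5c, both in wild-type hearts.

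By fitted value, 8 of 8 genes were higher with EMPA in wild-type and in R403Q hearts, as were 31.6% of all genes tested. For Tmem47 the wild-type value was 0.03 (SE 0.0841) and was -0.01 without WT-CD replicate 1 or 5, so that a shared direction was seen for the other 7. The median log2 fold change of the 8 was 0.46 in wild-type and 0.42 in R403Q hearts. The size was larger in wild-type hearts for Btnl9, Ttc7, Man1c1, Tent5c and 4933431K23Rik, and larger in R403Q hearts for Tmem64, Tmem47 and Acsl3. All WT-EMPA hearts were above all WT-CD hearts for 7 members, against 1.87% of all genes; all R403Q-EMPA hearts were above all R403Q-CD hearts for 4, against 0.953%. Both held for 4933431K23Rik, Tmem64 and Acsl3, and for 0.116% of all genes. These counts follow from the choice of the genes. The diet contrasts of the genotypes share no mice but share all 4 CD cages and 2 of the 3 EMPA cages. Over all genes tested their log2 fold changes had a Pearson's r of 0.36 and the same sign in 64.8%, and of the 22 genes up to the rank of the last member 19 were fitted higher in both.

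The interaction of genotype and diet, a contrast made of those that chose the genes, had an adjusted p under 0.05 (edgeR) for 0% of genes tested and for 0 of the 8. DESeq2 also found 0, and at an unadjusted p under 0.05 edgeR found 567 genes, Tmem47, Ttc7 and Tmem64 among them. The effect on Tmem47 was larger in R403Q hearts by 0.42 on the log2 scale (SE 0.118, adjusted p = 0.999), and that on Tmem64 by 0.18 (SE 0.0763). For Ttc7 the difference was -0.33 (SE 0.121), for Btnl9 -0.31 (SE 0.159) and for Tent5c -0.36 (SE 0.257), the effect being larger in wild-type hearts. Differences for Acsl3 (0.14, SE 0.14), 4933431K23Rik (-0.14, SE 0.192) and Man1c1 (-0.04, SE 0.106) were no larger than their SE. The spread between mice leaves intervals of this width, and a p above the threshold does not show that the genotypes responded alike.

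R403Q and wild-type hearts were then compared within each diet. On the control diet 1.44% of genes passed the adjusted threshold, and so did 1 of the 8. Tmem47 averaged 44.5 ± 6.69 CPM over WT-CD hearts (SD, n = 5) and 33.7 ± 2.27 CPM over R403Q-CD hearts (SD, n = 7) and fell by 0.40 on the log2 scale (SE 0.0777; adjusted p = 0.0166 by edgeR), with all 7 R403Q-CD hearts below all 5 WT-CD hearts. The groups did not overlap for 2.12% of all genes tested. WT-CD replicate 3, at 55.9 CPM, was the highest; without it the log2 fold change was -0.31 (adjusted p = 0.0571, edgeR). In a fit of WT-CD and R403Q-CD hearts alone the adjusted p was 0.0865, and with cage as a fixed block it was 0.0287 at a log2 fold change of -0.38. The same 7 R403Q-CD hearts gave the diet value for which Tmem47 was chosen.

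Tmem64 averaged 53.9 ± 1.35 CPM over WT-CD hearts (SD, n = 5) and 47.8 ± 3.57 CPM over R403Q-CD hearts (SD, n = 7). Its log2 fold change of -0.17 (SE 0.0501) missed the threshold with an adjusted p of 0.0725 (edgeR). Of the 7 R403Q-CD hearts 6 lay below all WT-CD hearts. It passed in 2 of 9 other settings, with an adjusted p of 0.022 in DESeq2 and 0.0471 with cage as a fixed block. With 1 mouse left out it passed in 1 of 12 edgeR refits, where adjusted p-values reached 0.167. The refit that passed, at 0.0292, was without R403Q-CD replicate 6, the heart with 54.2 CPM. These R403Q-CD hearts also gave the diet value for which Tmem64 was chosen. Btnl9 was fitted higher by 0.28 on the log2 scale (SE 0.106; adjusted p = 0.143 by edgeR), with 4 of 7 R403Q-CD hearts above all WT-CD hearts. The log2 fold changes of the other 5 genes lay between -0.13 for 4933431K23Rik and 0.28 for Tent5c, with adjusted p-values of 0.364 or more.

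On the EMPA diet 0.0578% of genes passed between R403Q-EMPA and WT-EMPA hearts, and 0 of the 8; 2 of the 8, Ttc7 and Acsl3, had an unadjusted p under 0.05, as had 2544 of all genes. Ttc7 averaged 19.9 ± 1.52 CPM over R403Q-EMPA hearts (SD, n = 4) and 24.8 ± 3.09 CPM over WT-EMPA hearts (SD, n = 5). Its log2 fold change was -0.32 (SE 0.0913), with an adjusted p of 0.133 in edgeR and 0.0372 in DESeq2. Of 9 other settings DESeq2 was the 1 in which Ttc7 passed, and 0 of 9 refits with a mouse left out passed. For Acsl3 the averages were 11.2 ± 0.984 and 9.61 ± 0.688 CPM, and the log2 fold change was 0.22 (SE 0.104; adjusted p = 0.339 by edgeR). For Acsl3 alone of the 8 the groups did not overlap, as for 6.77% of all genes. Tmem64 (0.01, SE 0.0575) and Tmem47 (0.02, SE 0.0893), both lower in R403Q hearts on the control diet by 0.17 and 0.40 on the log2 scale, had values near 0 on the EMPA diet. For 4933431K23Rik the log2 fold change was -0.27 (SE 0.144) and with cage as a fixed block -0.57 (SE 0.139, adjusted p = 0.254).

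**Figure D3:**
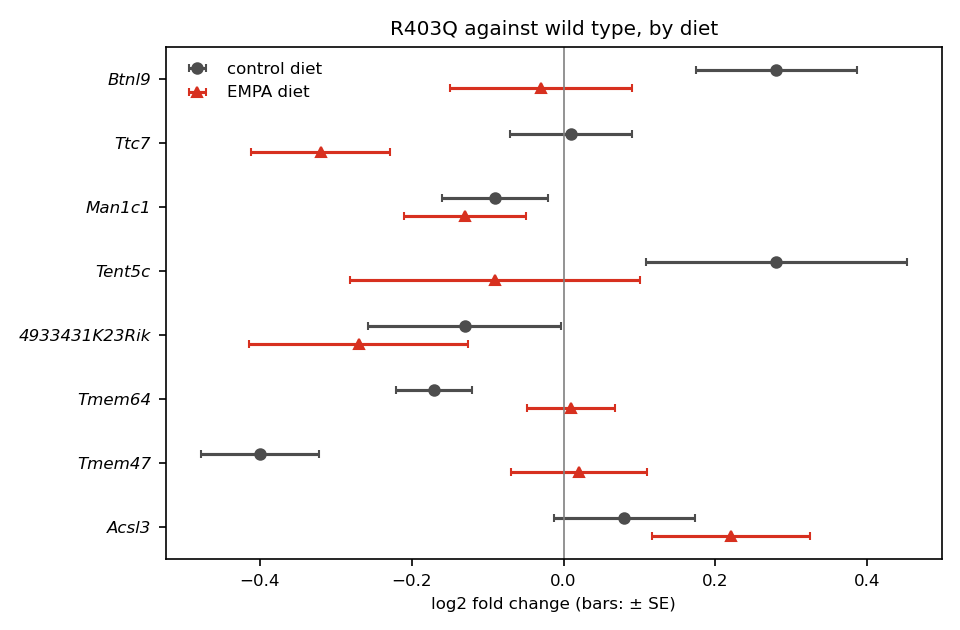
Log2 fold change (x axis, log2 scale) of R403Q against wild-type hearts for the 8 genes (y axis) on the control diet (circles) and on the EMPA diet (triangles), with bars for ± SE of the edgeR fit. Tmem47 on the control diet, at -0.40, is the value past the adjusted threshold; on the EMPA diet it is 0.02.

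Cage means are given as a description. Mean levels of the 3 EMPA cages were 78.1 to 91.6 CPM for Btnl9, against 53.2 to 60.4 CPM in the 4 CD cages, and 59.3 to 62.1 against 48.4 to 51.4 CPM for Tmem64. For Tmem47 they were 45.4 to 46.6 against 35.1 to 42.9 CPM. The cages held the genotypes in unequal numbers, 1 EMPA cage having wild-type mice alone, and the low Tmem47 means of CD cages include the R403Q-CD hearts. Each cage had a single diet, so that these means cannot separate cage from diet. After the group means were subtracted, the correlation of cage mates over all genes in limma's fit was 0.103.

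Within groups the 8 genes did not follow each other closely. After subtraction of group means, Pearson's r of log2 CPM over the 21 mice ran from -0.45 (Btnl9 and Tent5c) to 0.49 (4933431K23Rik and Tmem64) over all pairs, given as a description. Each gene had other genes that followed it more closely, in values that share libraries and depth. Btnl9 was nearest to Wars (0.81), P2ry2 (0.81) and Flnc (0.80), Ttc7 to Cyb5d2 (0.75), Arl6ip6 (0.74) and Mapkapk2 (0.72), and Man1c1 to Zfp346 (0.91), Nrip1 (0.89) and Reps1 (0.83). For Acsl3 the nearest were Bahcc1 (0.89), Phlpp1 (0.83) and Bcor (0.79), for Tmem64 Cop1 (0.79), Cass4 (0.78) and Plekhh1 (0.76), and for Tmem47 Chrdl2 (0.79), Igfals (0.79) and Zfp970 (0.77). The genes nearest to 4933431K23Rik were Ifitm6 (0.74), Lcn2 (0.70) and Ccl6 (0.69), with Spearman's rho of 0.44, 0.40 and 0.38. The genes nearest to Tent5c were all of red blood cells: Alas2 (0.78), the first enzyme of haem synthesis in erythroid cells, and the globin genes Hba-a1 (0.74) and Hbb-bt (0.73).

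All 8 genes of the list of erythroid markers were fitted higher with EMPA in both genotypes, with medians of 0.65 in R403Q and 0.64 in wild-type hearts; 8 and 6 had an unadjusted p under 0.05 and 0 passed the adjusted threshold of edgeR. DESeq2 called 4 in R403Q and 2 in wild-type hearts, with Alas2 among them in both. Their summed level was 736 to 1316 CPM in WT-CD, 1275 to 2056 in WT-EMPA, 904 to 1753 in R403Q-CD and 1247 to 2713 in R403Q-EMPA hearts. Hbb-bt had log2 fold changes of 0.83 in R403Q and 0.63 in wild-type hearts (adjusted p = 0.125 and 0.287, edgeR). An erythroid score, the mean log2 CPM of the 8 markers, was therefore set beside each of the 8 genes after the neighbours of Tent5c had been seen. It contains these 3 neighbours, so that its relation to Tent5c restates them and is a description without a test.

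Tent5c and the erythroid score had a Pearson's r of 0.74 and a Spearman's rho of 0.76 over 21 mice after group means were subtracted. Without the 2 mice farthest from the median score r was 0.63, and it was 0.63 among the 12 CD and 0.90 among the 9 EMPA mice. Apart from leaving out mice, 8 other fits were made, including the erythroid score as a covariate. Over these the diet log2 fold change of Tent5c ran from 0.05 to 0.60 in R403Q hearts (0.55 in the main fit). In wild-type hearts it ran from 0.46 to 0.92 (0.91 in the main fit). These fits are a description, and the part of red blood cells in the diet values of Tent5c was not tested. For the other 7 genes r lay between -0.43 for Man1c1 and 0.25 for Tmem64.

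Clock genes were counted in the same way. Of 12 genes that peak around the change from day to night, 11 were fitted lower with EMPA in R403Q hearts and 12 in wild-type hearts. Of 6 that peak around the change from night to day, 6 and 5 were fitted higher. None passed the adjusted threshold in edgeR, and 9 and 8 of the former and 3 and 3 of the latter had an unadjusted p under 0.05 in these directions. DESeq2 called Ciart in both genotypes and Nr1d1 in R403Q hearts. Ciart, a repressor of the clock, had log2 fold changes of -1.38 and -1.49 (adjusted p = 0.145 and 0.126), and Nr1d1, which represses Arntl, -0.85 and -0.39. Arntl, the activator of the clock, had 1.61 and 1.78, and its partner Clock 0.26 and 0.45 (adjusted p from 0.213 to 0.387, edgeR). The clock score, the mean log2 CPM of the former list minus that of the latter, had medians of 2.18 in WT-CD, 0.76 in WT-EMPA, 1.89 in R403Q-CD and 0.96 in R403Q-EMPA hearts. Hours of tissue collection are not given in the sources used here, so their part was not tested.

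Man1c1 and the clock score had a Pearson's r of -0.66 over 21 mice after group means were subtracted (permutation p = 0.00433, adjusted 0.0649) and a Spearman's rho of -0.63 (permutation p = 0.00843, adjusted 0.126). Both missed the threshold after adjustment over 15 relations, those of the 8 genes with both scores apart from that of Tent5c with the erythroid score. The 100000 permutations exchanged mice within groups and ignored cages, although values differed between some cages. Of the EMPA cages with both genotypes, 1 had clock scores of 1.33 to 1.90 with 38.8 to 47.9 CPM of Man1c1. The other had 0.28 to 0.76 with 50.9 to 52.4 CPM. The EMPA cage of wild-type mice alone spanned 0.39 to 1.93, with 47.5 to 56.6 CPM. CD cages followed no steady order: 1.21 to 1.65 went with 39.2 to 41.7 CPM and 1.45 to 1.89 with 33.6 to 36.4 CPM. Scores of 1.75 to 2.53 went with 33.6 to 37.7 CPM and 2.18 to 2.43 with 35.4 to 38.5 CPM. With cage means removed as well, chosen after seeing the data, r was -0.40. Without the 2 mice farthest from the median score r was -0.62, and it was -0.47 among the 12 CD and -0.77 among the 9 EMPA mice. With the clock score as a covariate, the diet log2 fold change of Man1c1 was 0.24 (SE 0.0764) in R403Q and 0.29 (SE 0.0736) in wild-type hearts, in place of 0.39 and 0.42. Acsl3 had an r of -0.42 with the clock score (permutation p = 0.0676, adjusted 0.496), and the other 6 genes lay between -0.10 and 0.19.

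**Figure D4:**
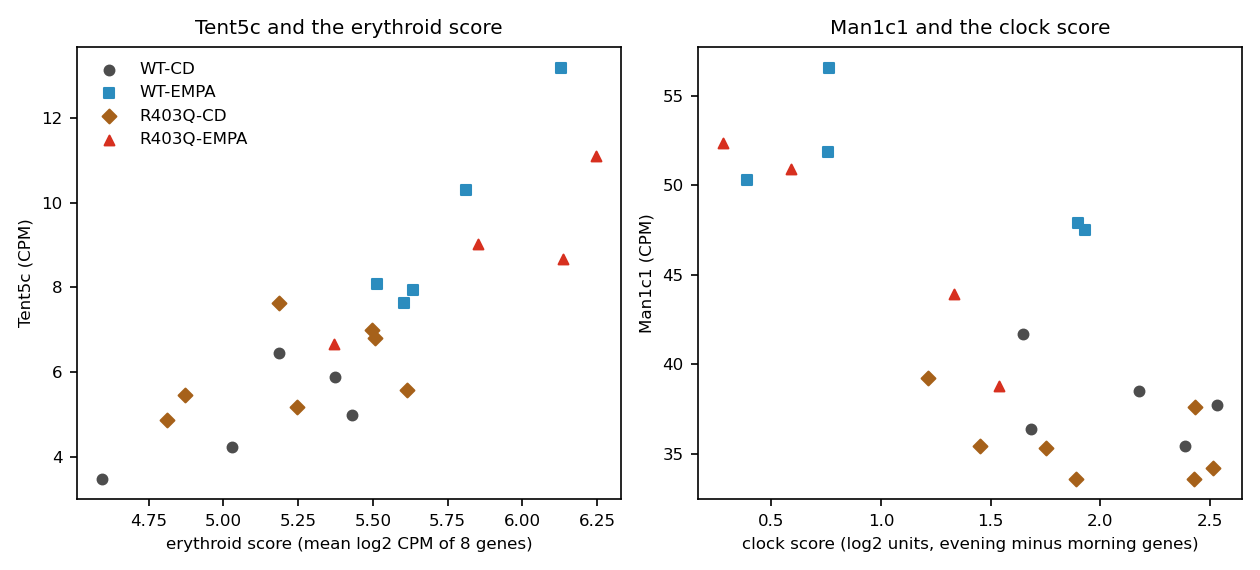
Tent5c in CPM against the erythroid score in log2 CPM (left) and Man1c1 in CPM against the clock score in log2 units (right), 1 symbol per mouse and a shape and colour per group; axes do not start at 0. Tent5c is higher in mice with a higher erythroid score (r = 0.74 within groups) and Man1c1 is lower in mice with a higher clock score (r = -0.66 within groups).

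Of the other lists, glucocorticoid-responsive genes (14 tested) gave 0 calls in either diet contrast in edgeR, though 7 in R403Q and 8 in wild-type hearts had an unadjusted p under 0.05 and DESeq2 called Angptl4 and Tsc22d3 in wild-type hearts, with medians of -0.07 in R403Q and -0.11 in wild-type hearts. Angptl4, a PPARα target that is also induced by glucocorticoids, had log2 fold changes of 1.37 and 1.76 (adjusted p = 0.143 and 0.126, edgeR), and Tsc22d3 -0.41 and -0.46. Among the marker lists of cell types, the other 16 also gave 0 calls in either diet contrast in edgeR, and in DESeq2 Cldn5 and Rgcc alone in R403Q hearts and 0 genes in wild-type hearts. Cardiomyocyte markers had medians of 0.01 in R403Q and -0.07 in wild-type hearts, fibroblast markers -0.13 and -0.15, and macrophage markers 0.08 and -0.01. Lists farther from 0 included atrial cardiomyocyte markers, with medians of -3.02 in R403Q (4 of 5 lower and 1 higher at an unadjusted p under 0.05) and -1.39 in wild-type hearts, smooth muscle markers, with -0.72 and -0.38, and adipocyte markers, with 0.09 and -0.41. The atrial markers summed to 11638 CPM in R403Q-CD replicate 2, to 984 to 3881 CPM in the other 6 R403Q-CD hearts and to 470 to 1147 CPM in R403Q-EMPA hearts. Without that mouse, a fit chosen for these lists after seeing the data, their median log2 fold change in R403Q hearts was -1.39, with 1 of 5 lower at an unadjusted p under 0.05, and that of smooth muscle markers was -0.74. Summed levels of smooth muscle markers had medians of 535 CPM in R403Q-CD and 344 CPM in R403Q-EMPA hearts; the part of either list in the values of the 8 genes was not tested. For the genotype comparison on the control diet fibroblast markers had a median of 0.68 (0 of 10 past the threshold) and macrophage markers 0.59 (2 of 9), beside the lower Tmem47 in R403Q-CD hearts; their part in that value was not tested.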

How the data were processed

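Left ventricular RNA of 21 mice was measured by sequencing of polyadenylated RNA. The authors aligned read pairs to mm10 with STAR 2.6.0c, checked them with FastQC 0.11.7 and counted uniquely aligned proper pairs per Ensembl gene with featureCounts (Subread 1.6.2), leaving out mitochondrial genes; the deposited counts are not normalized. The deposited log2 values are the authors' variance-stabilized counts from DESeq2 1.32.0. Symbols, exons and coordinates came from GENCODE on GRCm38.

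Tests on the counts used edgeR 4.0.16 under R 4.3.3: filterByExpr (minimum count 10), TMM, 1 model of 4 groups, quasi-likelihood test (two-sided), Benjamini-Hochberg adjustment over 17309 genes and a threshold of 0.05. Log2 CPM used a prior count of 2. Alternatives were DESeq2 1.42.0, no filter, library totals alone, limma 3.58.1 on the deposited log2 values, cage as a random or fixed block, only the groups compared, and leaving out each mouse; the covariate fits were added after seeing the data. The script was tested on simulated counts.

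The 8 genes and all lists were chosen with earlier results of these data known. Named genes are the 8, the 3 genes with the highest group-centred correlation with each, and from each list described the genes past the threshold in a diet contrast or, failing these, the 2 with the smallest p, although a few of these are left out here. Mice were taken as replicates. The authors give the strand setting of the counting as same strand; genes with exon bases in common are treated as uncertain.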

Additional observations from a re-analysis of the deposited data

How the results depend on the processing

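Numbers of genes past the threshold moved with the method, while the 8 genes kept their diet direction in all alternatives except Tmem47 in wild-type hearts. Sizes moved too: the diet log2 fold change of Tent5c in R403Q hearts, 0.55 in the main fit, was 0.05 at its lowest. For R403Q-EMPA against R403Q-CD, 2 genes passed in edgeR, 157 in DESeq2, 5 with library totals alone, 0 with only these groups and 0 to 12 when each mouse was left out. For WT-EMPA against WT-CD, 5 passed in edgeR, 112 in DESeq2, 0 with library totals alone, 1 with cage as a random block and 0 to 7 with a mouse left out. With cage as a random block, at most 1 of the calls of Btnl9, Ttc7 and Man1c1 was thus kept. In limma on the deposited log2 values, 0 genes of any gene or marker list passed in either diet contrast. For R403Q-CD against WT-CD, 250 passed (153 higher, 97 lower), 970 in DESeq2, 475 with cage as a random and 1128 as a fixed block, 28 with only these groups and 31 to 1045 with a mouse left out; library totals alone gave 274 higher and 78 lower. For R403Q-EMPA against WT-EMPA, 10 passed, 299 in DESeq2, 123 with only these groups, 0 with cage as a fixed block and 1 to 64 with a mouse left out. The interaction gave 0 in all of them. The causes were not tested.

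Among the 8 genes, 666 of the planned refits kept direction and side of the threshold, 42 lost and 19 gained a call, and 25 changed sign. Adjusted p-values of the diet calls reached 0.129 for Tmem64 in R403Q hearts and, in wild-type hearts, 0.18 for Btnl9, 0.18 for Ttc7 and 0.19 for Man1c1 when a mouse was left out, and 0.255 for Tmem64 with only the groups compared. With the clock score as a covariate, chosen after seeing the data, they were 0.198, 0.373, 0.424 and 0.586 in the same order. Butyrophilin genes other than Btnl9 were too low to be tested at this depth. The changes of sign lay near 0, apart from Tent5c between genotypes on EMPA, which was 0.18 with cage as a fixed block. With 1 mouse left out at a time, Tmem47 for the diet in wild-type hearts ran from -0.01 to 0.13 (0.03 with all mice), below 0 without WT-CD replicate 1 or 5. Between genotypes on CD, Ttc7 (0.01) ran from -0.03 to 0.04 and was 0 without the filter, -0.01 with cage as a random and -0.03 as a fixed block. Between genotypes on EMPA, Btnl9 (-0.03) ran from -0.08 to 0.07 and was 0.03 with library totals, Tent5c (-0.09) ran from -0.21 to 0.06 and was 0.18 with cage as a fixed block, Tmem64 (0.01) ran from -0.01 to 0.03 and was -0.03 with cage as a fixed block and 0 with the erythroid score as a covariate, and Tmem47 (0.02) ran from 0 to 0.06. In the interaction Man1c1 (-0.04) ran from -0.10 to 0.04 and 4933431K23Rik (-0.14) from -0.24 to 0.01. Blocks by cage are given above; the labels number no replicates, so that no fit was paired by replicate number.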
